A study of Sus scrofa with 12 samples.

Results

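The intestinal hexose transporters were described in the jejunum of piglets around weaning. Of the 4 listed genes (SLC5A1, SLC2A1, SLC2A2 and SLC2A5), 2 were found by gene name among the 17049 different gene names of the expression table, namely SLC5A1 and SLC2A2, and each had 1 row. SLC2A1 and SLC2A5 were not analysed here. Both genes found passed the filter on low expression in every comparison.

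SLC5A1 encodes SGLT1, the sodium-dependent cotransporter that carries glucose and galactose from the gut lumen across the brush border of the enterocyte. SLC2A2 encodes GLUT2, a facilitative carrier through which glucose, galactose and fructose leave the cell towards the blood. The sodium gradient used by SGLT1 is kept up by the basolateral sodium pump. Lactose from milk and starch from solid feed both reach this pathway after brush border enzymes have released their sugars.

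The RNA-seq data came from 12 piglets in 4 groups of 3. W_Con were sucking piglets of control sows, taken at 21 days of age on the day of weaning, and PW_Con were weaned piglets of control sows, taken at 28 days. W_Res and PW_Res were piglets of the same ages whose sows received 300 mg/kg dietary resveratrol, a plant polyphenol, from early gestation through lactation. The basal diet of all sows was of corn and soybean meal, and piglets were cross-fostered within a diet. Resveratrol is named only for the sows. Each library was prepared from poly(A) RNA of rinsed jejunum tissue. The public records describe Landrace semen and piglets kept in their pens after weaning, while the study's methods, which cover the control groups, describe male Yorkshire × Duroc piglets moved to a nursing room. Weaned piglets were 7 days older than sucking piglets, and age and weaning cannot be told apart. Values are FPKM, fragments scaled to exon length and to the mapped fragments of the library, so that levels of different genes can be set side by side. The number of reads behind a single FPKM value is unknown, although the study's supplement gives mapped reads per library for the control groups.

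Some libraries stood apart before any comparison was made. The summed FPKM of 6 smooth muscle genes (ACTA2, ACTG2, DES, TAGLN, CNN1 and MYLK) was 1787 and 3905 in W_Res replicates 1 and 2, and between 150.0 and 656 in the other libraries. No gene of that list was at 0 in any library. FABP6, an ileal bile acid carrier, ranged from 1.70 to 24110 FPKM, although all samples are labelled jejunum. The brush border genes VIL1 (villin) and ANPEP (aminopeptidase N) were expressed in all libraries, with means over the 12 libraries of 814 and 1618 FPKM. Pearson's r between replicates, across 12886 genes that are not independent of each other, was 0.881 to 0.911 in W_Res and 0.921 to 0.961 in the other groups. In bulk tissue, fewer cells of a type and less RNA per cell cannot be told apart.

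SLC5A1 was an abundant transcript of the jejunum. Its level ranged from 60.6 to 529 FPKM over the 12 libraries, with a median of 221 FPKM, and lay between the 94.9th and 99.5th percentile of the genes detected in a library. In sucking piglets of control sows it was at 529, 280.3 and 237 FPKM. In weaned piglets of control sows it was at 134, 314 and 60.6 FPKM. PW_Con replicate 2 thus lay among the sucking libraries, while replicates 1 and 3 lay below all 3 of them. In W_Res, SLC5A1 was at 108, 132 and 305 FPKM, with replicate 3 well above the others. In PW_Res, it was at 281, 125 and 205 FPKM, inside the range of W_Res. The order of the group means was W_Con (349 ± 158 FPKM), PW_Res (204 ± 78.2 FPKM), W_Res (182 ± 107 FPKM) and PW_Con (170 ± 130.1 FPKM) (SD, n = 3 each), and all neighbours in this order overlapped.

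SLC2A2 was expressed at a far lower level, from 3.09 to 15.2 FPKM with a median of 7.39 FPKM. In W_Con it was at 11.6, 10.1 and 15.2 FPKM, and in PW_Con at 8.02, 5.90 and 3.55 FPKM. The 3 sucking libraries of control litters therefore lay above the 3 weaned libraries. In W_Res it was at 3.09, 5.14 and 8.07 FPKM, so that these libraries also lay below all W_Con libraries. In PW_Res it was at 12.6, 6.64 and 6.77 FPKM, where replicate 1 reached the W_Con range. The group means were 12.3 ± 2.61 FPKM in W_Con, 8.68 ± 3.43 FPKM in PW_Res, 5.82 ± 2.24 FPKM in PW_Con and 5.44 ± 2.51 FPKM in W_Res (SD, n = 3 each), again with overlap between neighbours in the order. The deposited row of SLC2A2 joined 8 transcripts, 7 of them assembled from these reads, while that of SLC5A1 held 1 annotated transcript.

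**Figure D1:**
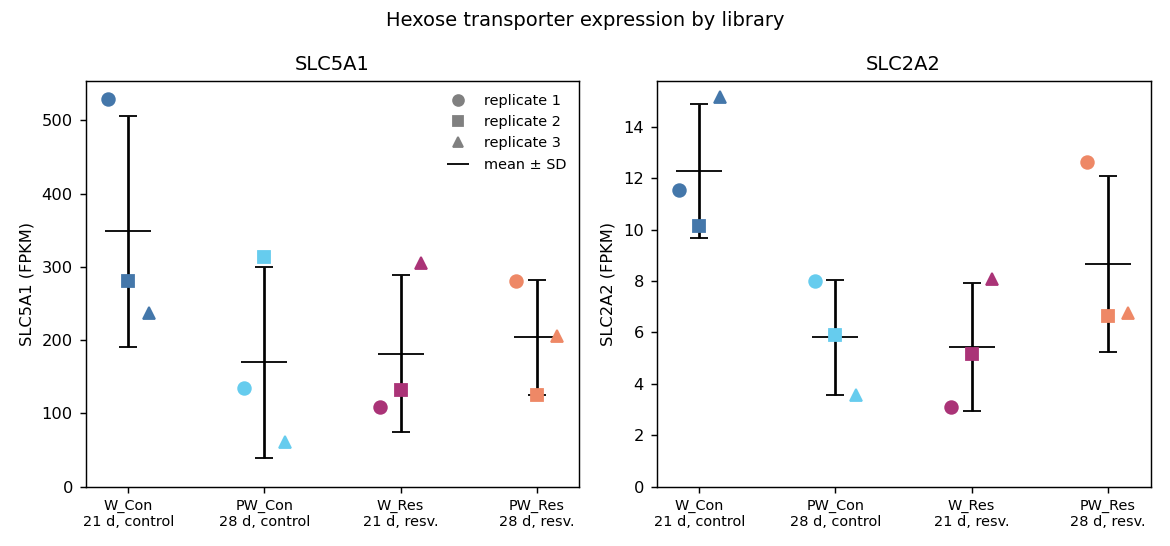
FPKM of SLC5A1 (left) and SLC2A2 (right) in each of the 12 libraries, with 1 symbol per piglet and the mean ± SD of each group as a line with bars. W_Con lies above PW_Con and W_Res without overlap for SLC2A2, while the SLC5A1 groups overlap.

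The first comparison asked what differed between sucking and weaned piglets of control sows. For SLC2A2, weaned against sucking piglets gave a log2 fold change (log2FC) of -0.999, with a standard error (SE) of 0.28 and a 95% interval from -1.67 to -0.33, and the groups did not overlap. The unadjusted P of limma was 0.00923 and the adjusted p was 0.168. By the standard of the study, a gene differed where its unadjusted P was under 0.05 and its log2FC beyond 1 in either direction, so that SLC2A2 lay just inside the fold limit. Of the 12611 genes tested, 3.31% met the standard (1.82% lower in weaned piglets), 17.7% had an unadjusted P under 0.05, and 25.3% had groups that did not overlap (12.7% lower in weaned piglets). With a pseudocount of 0.1 in place of 1, SLC2A2 met the standard (-1.12). It also met it without W_Con replicate 1 (-1.03), without W_Con replicate 2 (-1.12), without PW_Con replicate 1 (-1.23) or without PW_Con replicate 2 (-1.04). It was smaller without W_Con replicate 3 (-0.85) or without PW_Con replicate 3 (-0.73), and the Ballgown linear model gave an unadjusted P of 0.0625. SLC5A1 had a log2FC of -1.25 in the same comparison (SE 0.59, 95% interval -2.63 to 0.12, unadjusted P = 0.0686 and limma adjusted p = 0.316). Its groups overlapped and its interval included 0. The study drew piglets of both ages from the same set of litters, but the labels do not say which libraries share a litter. The call for SLC5A1 changed in a fit with replicate number as a block, given in the last section. Single weaned libraries moved the log2FC of SLC5A1 either way. Without PW_Con replicate 2 it was -1.85 and met the standard, and without PW_Con replicate 3 it was -0.67.

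The summed FPKM of the 9 villus brush border genes found was 5192 to 9808 in W_Con and 3478 to 7558 in PW_Con. Of these 9 genes 2 met the standard downwards, namely the fatty acid carrier FABP2 (-2.2) and the lipoprotein gene APOB (-1.23), with a list median of -0.57 against -0.016 over all genes. The log2FC was negative for 6 and positive for 3 of the 9 (ANPEP, EZR and MEP1A), and that of VIL1 was -0.16. Markers of the position along the gut were also compared. Of 6 proximal small intestine genes 2 met the standard downwards (FABP1 and SLC40A1), and the log2FC was negative for 6 of 6, with a median of -1.65. Of 5 distal ones 1 met it upwards (SLC51A), and the log2FC was positive for 5 of 5, with a median of 1.26. Their part in the transporter values was not tested. The summed FPKM of 3 erythrocyte genes was 30.9 to 74.3 in W_Con and 0.662 to 48.3 in PW_Con. With the brush border list as a covariate, a setting chosen after the data were seen, SLC2A2 was at -0.72 (unadjusted P = 0.0847, limma adjusted p = 0.481) and SLC5A1 at -0.49 (limma adjusted p = 0.787). With the smooth muscle list as a covariate, SLC2A2 was at -0.93 (unadjusted P = 0.0141, limma adjusted p = 0.185).

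In the litters of resveratrol-fed sows, neither transporter differed between sucking and weaned piglets beyond the spread between replicates. SLC2A2 had a log2FC of 0.61 (SE 0.36, 95% interval -0.24 to 1.45, limma adjusted p = 0.490). SLC5A1 had a log2FC of 0.24 (SE 0.46, 95% interval -0.83 to 1.31, limma adjusted p = 0.842). Among the 13013 genes tested here, 4.75% met the standard, 13.3% had an unadjusted P under 0.05 and 21.8% had groups that did not overlap. For SLC2A2 the value was 0.32 without W_Res replicate 1, 0.335 without PW_Res replicate 1 and 0.038 without W_Res replicates 1 and 2. It was larger without W_Res replicate 3 (0.895, unadjusted P = 0.0395 from limma) and in the Ballgown linear model (1.10, unadjusted P = 0.360), and met the standard in neither. In this comparison 6 of 6 smooth muscle genes met the standard downwards, with a median log2FC of -2.32 against -0.16 over all genes tested. The direction of SLC5A1 turned without W_Res replicate 1 (-0.054) or without PW_Res replicate 1 (-0.029), and the intervals leave room for changes in either direction.

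The next comparison asked whether the maternal diet went along with a difference before weaning. In sucking piglets, SLC2A2 was lower in resveratrol than in control litters, with a log2FC of -1.10 (SE 0.32, 95% interval -1.86 to -0.35). It met the study's standard with an unadjusted P of 0.00986, and the adjusted p from limma was 0.344. The standard was met by 4.47% of the 13186 genes tested (1.49% lower in resveratrol litters), 13.3% had an unadjusted P under 0.05, and 21.0% had groups that did not overlap (7.18% lower). SLC2A2 no longer met it without W_Con replicate 3 (-0.95) or without W_Res replicate 1 (-0.81). SLC5A1 had a log2FC of -0.999 (SE 0.46, 95% interval -2.06 to 0.06, unadjusted P = 0.0618 and limma adjusted p = 0.397), with overlapping groups. It met the standard without W_Con replicate 3 (-1.23) or without W_Res replicate 3 (-1.45), and was -0.65 without W_Con replicate 1 and -0.705 without W_Res replicate 1.

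Smooth muscle genes moved in the same comparison. Their summed FPKM was 150.0 to 631 in W_Con and 656 to 3905 in W_Res, and 5 of the 6 genes met the standard upwards at 21 days, with a median log2FC of 2.45 against 0.087 over all genes tested. The summed FPKM of the 9 villus brush border genes found was 5192 to 9808 in W_Con and 2966 to 5990 in W_Res. Of these 9 genes 1 met the standard downwards, and the log2FC was negative for 8 and positive for 1. Their median log2FC was -0.61 against 0.087 over all genes tested. Of 6 lymphocyte genes tested 3, the T cell genes CD3E, CD3D and CD2, met the standard downwards in W_Res. The B cell receptor genes CD79A (0.41) and CD79B (0.85) had a positive log2FC, with values in W_Res above all of W_Con, and did not meet it. With the smooth muscle list as a covariate, the log2FC of SLC2A2 at 21 days was -0.54 (unadjusted P = 0.232 and limma adjusted p = 0.847). Without W_Res replicates 1 and 2, where the single W_Res library left is assumed to vary like the other group, it was -0.53, and SLC5A1 was at -0.10. With the brush border covariate SLC2A2 was at -0.91 (unadjusted P = 0.0732 and limma adjusted p = 0.677). These 3 settings were chosen after the data were seen. In the Ballgown linear model SLC2A2 was at -0.91 with an unadjusted P of 0.208.

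The level per 1000 FPKM of VIL1 gives SLC2A2 relative to a structural protein of the enterocyte brush border. On this scale SLC2A2 was at 14.2, 9.91 and 17.5 in W_Con and at 4.98, 17.4 and 10.1 in W_Res, so that these groups overlapped. In PW_Con it was at 7.93, 6.34 and 6.50, below all 3 W_Con libraries. In PW_Res it was at 11.9, 7.46 and 7.43, inside the range of W_Res, and the mean was 8.93 in PW_Res and 10.8 in W_Res, the opposite order to that in plain FPKM. SLC5A1 per 1000 FPKM of VIL1 was at 273 to 651 in W_Con, 175 to 446 in W_Res, 111 to 337 in PW_Con and 140.3 to 265 in PW_Res. W_Res replicate 2, which had the highest SLC2A2 and SLC5A1 of its group on this scale, had the lowest VIL1 of the 12 libraries, at 296 FPKM. The share of all genes whose groups overlap on this scale was not computed.

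After weaning, neither gene differed between the maternal diets beyond the spread between piglets in the fit without covariates. At 28 days, SLC2A2 had a log2FC of 0.505 in resveratrol against control litters (SE 0.33, 95% interval -0.27 to 1.28, limma adjusted p = 0.613). Without PW_Res replicate 1 it was 0.23, and without PW_Con replicate 3 it was 0.24. With the brush border covariate, chosen after the data were seen, SLC2A2 was at 0.53 (unadjusted P = 0.0350, limma adjusted p = 0.369) and did not meet the standard. SLC5A1 had a log2FC of 0.49 (SE 0.59, 95% interval -0.89 to 1.87, limma adjusted p = 0.796), which was -0.089 without PW_Con replicate 3. The standard was met by 1.81% of 12380 genes, while 10.2% had an unadjusted P under 0.05 and 17.3% had groups that did not overlap.

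The weaning difference itself was then compared between the litter sets, over all 12 libraries. For SLC2A2 the change from 21 to 28 days was higher by 1.61 on the log2 scale in resveratrol litters (SE 0.49, 95% interval 0.53 to 2.68). This met the standard (unadjusted P = 0.00697, limma adjusted p = 0.251), which 7.76% of 12886 genes did, 1.81% in this direction, and 13.7% had an unadjusted P under 0.05. With each of the 12 libraries left out in turn it stayed between 1.32 and 1.89 and met the standard each time. It was 1.32 with the smooth muscle covariate (unadjusted P = 0.0587 and limma adjusted p = 0.881) and 1.04 without W_Res replicates 1 and 2 (unadjusted P = 0.0855 and limma adjusted p = 0.413), and met the standard in neither. With the brush border covariate it was 1.27 (unadjusted P = 0.0125 and limma adjusted p = 0.358) and met the standard. In the Ballgown linear model it was 1.69 with an unadjusted P of 0.0743. Markers of gut position also moved in this test. The difference was positive for 6 of 6 proximal genes (median 1.09) and negative for 5 of 5 distal ones (median -0.95). Of the villus brush border genes 7 were positive and 2 negative (median 0.58), and the median over all genes was -0.15. The part of gut position in the SLC2A2 value was not tested. For SLC5A1 the difference was 1.49 (SE 0.82, 95% interval -0.30 to 3.29, unadjusted P = 0.0951 and limma adjusted p = 0.437). It met the standard without W_Res replicate 3 (1.94) or without PW_Con replicate 2 (2.09), and was 0.91 without PW_Con replicate 3. It was 0.60 without W_Res replicates 1 and 2 and 0.89 with the brush border covariate. The W_Con and W_Res libraries enter this test as well as the comparisons above, so that these results are not separate evidence.

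**Figure D2:**
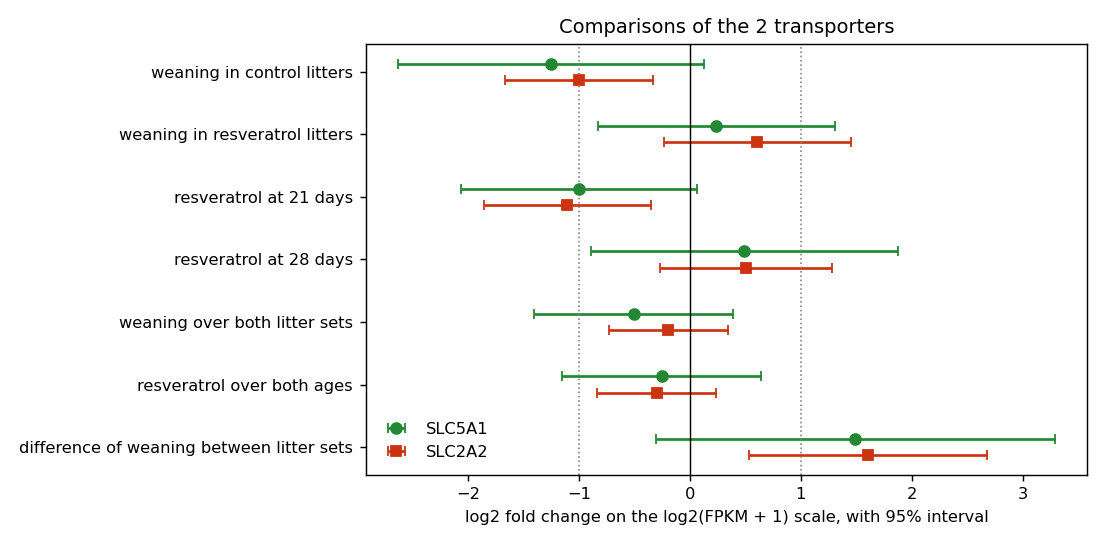
Log2FC of SLC5A1 (circles) and SLC2A2 (squares) in the 7 comparisons, with 95% intervals from limma and dotted lines at the fold limit of the study. The intervals of SLC2A2 leave out 0 for weaning in control litters, resveratrol at 21 days and the difference between litter sets, while all intervals of SLC5A1 include 0.

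Averaged over both litter sets, weaned and sucking piglets did not differ beyond the spread between piglets. The log2FC was -0.51 for SLC5A1 (95% interval -1.40 to 0.39, limma adjusted p = 0.519) and -0.195 for SLC2A2 (95% interval -0.73 to 0.34, limma adjusted p = 0.691). With 1 library left out in turn, these values ran from -0.80 (without PW_Con replicate 2) to -0.215 (without PW_Con replicate 3) for SLC5A1, and from -0.34 (without W_Res replicate 1) to -0.052 (without W_Res replicate 3) for SLC2A2. Averaged over both ages, resveratrol against control litters gave -0.25 for SLC5A1 (95% interval -1.15 to 0.65, limma adjusted p = 0.814). The same contrast gave -0.30 for SLC2A2 (95% interval -0.84 to 0.24, limma adjusted p = 0.623). The standard was met by 1.42% of 12886 genes for weaning and by 0.939% for resveratrol, and the unadjusted P was under 0.05 for 19.0% and 12.3%. Across the 7 comparisons, 0 adjusted p of limma were under 0.05 for SLC5A1 and 0 for SLC2A2. Among all genes tested this share was 0% for weaning in control litters, resveratrol at 21 days and the difference between litter sets, 0.00768% for weaning in resveratrol litters, 0.00808% for resveratrol at 28 days, 0.0776% for weaning averaged and 0.14% for resveratrol averaged. The unadjusted P was under 0.05 in 0 comparisons for SLC5A1 and in 3 for SLC2A2, and in the Ballgown linear model in 0 for either gene.

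The ratio of SLC5A1 to SLC2A2 FPKM sets the transcript levels of both genes side by side in each piglet. Amounts of the transporter proteins were not measured. It ran from 15.6 to 53.2 over the 12 libraries. In W_Con the ratio was 45.8, 27.7 and 15.6, and in PW_Con 16.8, 53.2 and 17.1. In W_Res it was 35.1, 25.7 and 37.7, and in PW_Res 22.3, 18.8 and 30.3. W_Res and PW_Res overlapped, and both control groups spanned nearly the whole range. Across the 12 libraries, Pearson's r between the transporters was 0.73 (Spearman's rho 0.66), and 0.61 over the 10 libraries left without W_Con replicate 1 and PW_Con replicate 3. These points share the library and its tissue make-up, and r is given as a description.

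Crypt and dividing-cell genes ran opposite to SLC2A2 within groups. The 7 genes found of that list were led by OLFM4, a stem cell zone glycoprotein, and their summed FPKM was 457 to 931 in W_Con, 352 to 1362 in PW_Con, 401 to 1377 in W_Res and 232 to 1264 in PW_Res. Over deviations from the group means, r with SLC2A2 was -0.94 (n = 12 libraries), and -0.93 without PW_Con replicate 3 and PW_Res replicate 1. Without removing group means it was -0.59, and -0.36 without PW_Res replicate 1 and W_Res replicate 1. The crypt list was picked for the largest within-group r with SLC2A2 among the lists compared. Sugar digestion (0.825) and the other hexose transporters (0.77) followed. How often a list would reach such values was not computed. PW_Con replicate 3 and W_Res replicate 1, which had the lowest SLC2A2, had the highest crypt sums. For SLC5A1 the value within groups was -0.54, and -0.35 without PW_Con replicate 3 and PW_Res replicate 1. Other lists had a larger within-group r with SLC5A1, namely sugar digestion (0.67), sweet sensing and regulators (0.655) and the distal small intestine (0.61). The distal value was 0.47 without PW_Res replicate 1 and W_Res replicate 3. With the smooth muscle list, r was -0.50 for SLC2A2 and -0.20 for SLC5A1 without removing group means, and -0.27 and -0.04 when W_Res replicate 2 and W_Con replicate 3 were left out. Within groups these values were -0.25 and -0.05, and they turned to 0.24 and 0.10 without W_Res replicate 3 and W_Con replicate 3.

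**Figure D3:**
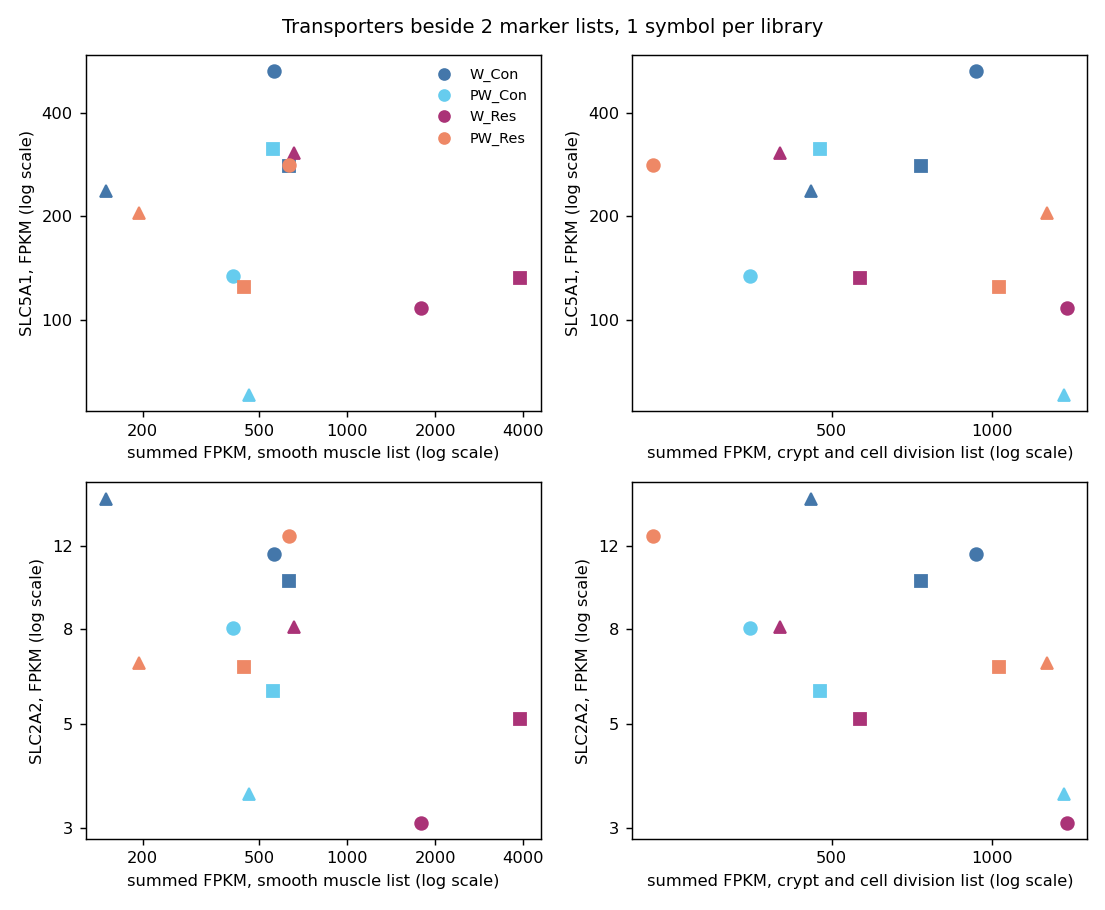
FPKM of SLC5A1 (top) and SLC2A2 (bottom) against the summed FPKM of the smooth muscle list (left) and of the crypt and cell division list (right), all on log axes, with 1 symbol per library, colored by group and shaped by replicate number as in the plot of FPKM by library. W_Res replicates 1 and 2 lie far to the right in the smooth muscle panels, at 1787 and 3905 FPKM.

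The genes whose pattern was most like that of each transporter were taken by Pearson's r of log2(FPKM + 1) over the 12 libraries, among 7742 named genes with a mean of at least 1 FPKM. For SLC5A1 these were CLCA4 (r = 0.92), XCR1 (0.88), SYTL3 (0.86), EFCAB14 (0.84) and TMC5 (0.83). CLCA4, a member of the calcium-activated chloride channel regulator family, ranged from 28.8 to 280.2 FPKM, and within groups its r with SLC5A1 was 0.96. For SLC2A2 they were TET2 (r = 0.88), MYO6 (0.87), RALGPS1 (0.87), DDX59 (0.86) and PARP14 (0.86). MYO6 encodes myosin VI, a motor of the brush border, and ranged from 6.23 to 16.6 FPKM. XCR1 and TET2 were near the floor, with means of 1.27 FPKM (0 to 4.76) and 1.04 FPKM (0.267 to 2.82). The median r over all candidates was -0.057 for SLC5A1 and -0.13 for SLC2A2. These genes were picked for the highest r, and how often such values would be reached was not computed.

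Other sugar carriers of the jejunum were mostly expressed at low levels. Of 20 listed, 15 were found and 9 to 11 tested, depending on the comparison. SLC37A4, the glucose-6-phosphate carrier of the endoplasmic reticulum, had the highest mean of this list (24.3 FPKM over the 12 libraries), followed by SLC5A4 (9.50 FPKM) and the sugar exporter SLC50A1 (6.98 FPKM). In control litters 0 of 9 met the standard, with 2 at an unadjusted P under 0.05, and the median log2FC was 0.084 against -0.016 over all genes tested. In resveratrol litters 1 of 11, SLC2A7, was higher in weaned piglets. SLC2A7, which encodes GLUT7, was at 0.927, 5.23 and 0.839 FPKM in W_Res and at 16.0, 7.45 and 2.94 FPKM in PW_Res, with overlapping groups and a log2FC of 1.56 (SE 0.64, limma adjusted p = 0.365). It was at 0.469, 3.76 and 8.30 FPKM in W_Con and at 1.14, 5.69 and 0.0538 FPKM in PW_Con. No gene of this list met the standard in the other 5 comparisons, where 0 to 2 had an unadjusted P under 0.05.

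SLC5A4, the gene next to SLC5A1 in the Sscrofa11.1 annotation of RefSeq, is a member of the same family. Its level was highest in W_Res replicate 3 (31.9 FPKM) and W_Res replicate 2 (17.9 FPKM), and lowest in PW_Con replicate 3 (0.678 FPKM). PW_Con replicate 3 also had the lowest SLC5A1. How the authors' counting shared reads between such related genes is not given in the sources used here.

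The sugars carried by these transporters are released by brush border enzymes, of which sucrase-isomaltase (SI) and trehalase (TREH) were found, 2 of the 4 listed. SI was at 28.7, 34.9 and 23.0 FPKM in W_Con and at 34.4, 34.8 and 13.6 FPKM in PW_Con, with a log2FC of -0.15 (SE 0.37, limma adjusted p = 0.874). Neither enzyme met the standard in any of the 7 comparisons, and 0 had an unadjusted P under 0.05. As with both transporters, the lowest SI value of the control libraries was that of PW_Con replicate 3.

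The sodium pump, which supplies the gradient for SGLT1, had 3 of its 5 listed genes in the table. ATP1B1, the beta subunit, was at 170, 159 and 136 FPKM in W_Con and at 98.5, 32.0 and 46.9 FPKM in W_Res. It was lower in W_Res without overlap, with a log2FC of -1.53 (SE 0.39, limma adjusted p = 0.344). Averaged over both ages its log2FC for resveratrol was -1.14 (SE 0.33, limma adjusted p = 0.248). In control litters it was -0.10 between weaned and sucking piglets (SE 0.16).

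The enzymes that take up the absorbed hexoses were found for 15 of 19 listed genes. GALM (86.4 FPKM), an enzyme of galactose use, and FBP1 (81.6 FPKM), one of gluconeogenesis, were among those with the highest means over the 12 libraries. Between weaned and sucking control litters 0 of 14 met the standard, with 3 at an unadjusted P under 0.05 in limma and a median log2FC of 0.28. In resveratrol litters 1 of 15 did, PFKFB3, a regulator of glycolysis, with a log2FC of 1.79 (SE 0.60, limma adjusted p = 0.337). At 21 days 1 of 15, GCKR, was higher in resveratrol litters (1.29, SE 0.29, limma adjusted p = 0.322). Its levels were low, at 0.155, 0.667 and 0.729 FPKM in W_Con and at 1.87, 3.35 and 2.94 FPKM in W_Res.

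Among the sweet-sensing and regulatory genes, 13 of 18 were found and 12 tested. In control litters 2 were lower in weaned piglets, namely GIP, the incretin hormone of K cells, at -1.38 (SE 0.32, limma adjusted p = 0.130) and ARRDC4, an arrestin relative of TXNIP, at -1.15 (SE 0.42, limma adjusted p = 0.228). The subunit of the sweet and umami receptors TAS1R3 was at 2.01, 0.930 and 0.657 FPKM in W_Con and at 3.54, 3.54 and 4.61 FPKM in W_Res. It was higher in W_Res by 1.20 on the log2 scale (SE 0.29, limma adjusted p = 0.340) and lower in PW_Res than in W_Res (-1.10, SE 0.24, limma adjusted p = 0.311). MLXIPL, the carbohydrate-response factor ChREBP, was also higher in resveratrol litters at 21 days (1.31, SE 0.40, limma adjusted p = 0.344). TXNIP (139 FPKM on average), GCG (104 FPKM) and GIP (88.6 FPKM) had the highest means of this list, and the proglucagon gene GCG was lower in resveratrol litters at 28 days (-1.42, SE 0.45, limma adjusted p = 0.404). In that comparison the log2FC of 5 of 5 distal markers was negative (median -1.63, 1 past the standard) and the median of the 6 proximal markers was 0.96 (1 past the standard). GCG was at 106, 31.0 and 33.8 FPKM in PW_Res, and the distal marker FABP6 was at 24110, 1.70 and 4.81 FPKM in the same libraries. The part of the position along the gut in the GCG value was not tested.

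Of 12 epithelial transcription factors, 9 were found and tested. HNF4A (177 FPKM), GATA6 (20.6 FPKM) and CDX2 (19.0 FPKM) had the highest means over the 12 libraries and met the standard in none of the comparisons. SP1 was lower in resveratrol litters at 21 days (-1.05, SE 0.23, limma adjusted p = 0.322). In control and in resveratrol litters 0 of 9 met the standard between weaned and sucking piglets, with 2 and 0 at an unadjusted P under 0.05 in limma.

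**Figure D4:**
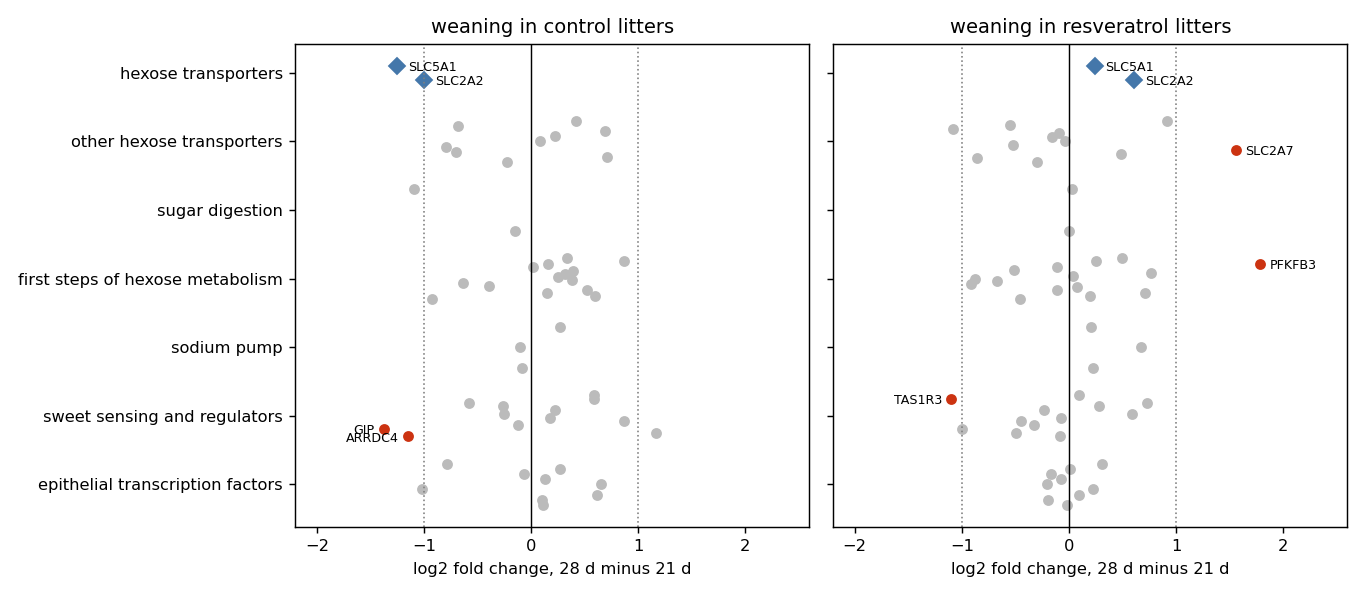
Log2FC of weaned against sucking piglets for SLC5A1 and SLC2A2 (diamonds) and for each tested gene of the 6 lists (dots), in control litters (left) and resveratrol litters (right). Red dots with names mark genes past the study's standard, which are GIP and ARRDC4 in control litters and SLC2A7, PFKFB3 and TAS1R3 in resveratrol litters, and dotted lines mark the fold limit.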

How the data were processed

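Jejunum RNA of 12 piglets was sequenced as paired-end poly(A) libraries. The authors aligned the reads to the pig genome (TopHat in the study's methods, while the submitters' processing notes name HISAT2 2.0, Bowtie 0.12.2 and StringTie 1.3.0 with the builds Sscrofa10.2 and mm8) and deposited FPKM per locus from StringTie and Ballgown. The table holds no counts, so that the reads behind single values and the counting error are unknown. Mapped reads per library are given in the study's supplement for the control groups only. The sources name no further scaling. Loci lacking a gene name (17650 of 41264) were set aside, and rows that share a gene name were summed. The 4 listed transporters were looked for by gene name, and genes of the other lists without a symbol in the table were matched by Ensembl identifier. Log2(FPKM + 1) was analysed in R 4.3.3 with limma 3.58.1 (eBayes with a mean-variance trend), over genes averaging 0.5 FPKM or more in the fitted libraries, and p-values were Benjamini-Hochberg adjusted over all of these genes. Fold changes on this scale understate those of low genes. Comparisons between pairs of groups used their 6 libraries, and averages and the difference between litter sets used all 12. The method was tested on simulated data. Named were the 4 listed transporters, the 5 most similar genes of each, and list genes past the standard or among the 3 highest of their list, except a few that are not reported here. Genes and lists were chosen with earlier results of these data known. P-values measure the spread between these piglets, whose litters the labels do not give. Alternatives changed the pseudocount, filter, scaling, moderation, block, model, libraries and rows. No transporter sequences were used here.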

Additional observations from a re-analysis of the deposited data

Results flagged for a closer look

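The change from 21 to 28 days differed between resveratrol and control litters past the study's standard for SLC2A2 and for 4 listed genes given here, by a test of the difference itself over all 12 libraries. The adjusted p of limma was 0.251 to 0.361 for these 5. SLC2A2 differed by 1.61, from -0.999 in control litters to 0.61 in resveratrol litters, and the latter value was 0.038 without W_Res replicates 1 and 2. STOM (stomatin, a membrane protein that binds glucose carriers) differed by 1.31, from -0.58 to 0.73. SP1 differed by 1.09, from -0.78 to 0.31. TAS1R3 differed by -1.69, from 0.59 to -1.10. MLXIPL differed by -1.32, from 0.87 to -0.45. The smooth muscle sum was 656 to 3905 FPKM in W_Res and at most 634 FPKM in the other groups, and 4 of its 6 genes met the standard in this test, all lower. For SLC2A2 the difference was 1.32 with the smooth muscle covariate, 1.04 without W_Res replicates 1 and 2 and 1.27 with the brush border covariate, of which the last met the standard. In this test 6 of 6 proximal gut markers were positive (median 1.09) and 5 of 5 distal ones negative (median -0.95), and the part of gut position was not tested. For the other 4 genes the part of tissue make-up was not tested.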

How the results depend on the processing

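Of the 292 alternative values of both transporters, 262 kept their direction and their side of the standard, 12 newly met it, 9 lost it and 9 turned direction, and the lowest adjusted p was 0.134. For SLC2A2 the standard was newly met for weaning in control litters with a pseudocount of 0.1 (-1.12). It was lost at 21 days in the Ballgown model (-0.91), without W_Res replicates 1 and 2 (-0.53) and with the smooth muscle (-0.54) or brush border covariate (-0.91), and in the difference between litter sets in the Ballgown model (1.69), without those replicates (1.04) and with the smooth muscle covariate (1.32). Its weaning value over both litter sets turned to 0.002 with the brush border covariate. For SLC5A1 it was newly met at 21 days with median-of-ratios rescaling (-1.11). In resveratrol litters its weaning value turned to -0.66 without W_Res replicates 1 and 2 and to -0.38 with the smooth muscle covariate. Its resveratrol value over both ages turned to 0.19 and, with the brush border covariate, to 0.080. With 1 library left out, SLC5A1 ran from -1.85 to -0.67 (weaning, control), -0.054 to 0.69 (weaning, resveratrol), -1.45 to -0.65 (21 days), -0.089 to 1.09 (28 days), -0.54 to 0.044 (resveratrol, both ages; reversed only without PW_Con replicate 2) and 0.91 to 2.09 (difference), and SLC2A2 from -1.23 to -0.73 (weaning, control) and -1.39 to -0.81 (21 days), 0.32 to 0.895 (weaning, resveratrol), 0.23 to 0.73 (28 days) and -0.44 to -0.155 (resveratrol, both ages). The cause of these changes was not tested.

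Replicate numbers are shared between groups, but the deviations of same-numbered libraries correlated above 0.1 in only 5 of 18 pairs, so that they were not treated as pairs. With the replicate block, SLC5A1 met the standard for weaning in control litters (-1.25, unadjusted P = 0.0386 from limma), and no other call of either gene changed.

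Counts of genes past the standard, in the order weaning in control and resveratrol litters, resveratrol at 21 and 28 days, weaning and resveratrol averaged, and difference, were 418, 618, 590, 224, 183, 121 and 1000. A pseudocount of 0.1 gave 853, 1163, 1008, 488, 591 and 379 for the first 6, and a minimum of 5 FPKM gave 227, 245, 248, 122, 118, 76 and 364. The Ballgown model gave 257 (weaning, resveratrol), 202 (21 days) and 320 (difference), the smooth muscle covariate 475 (difference), and leaving out W_Res replicates 1 and 2 gave 1129, 1046, 337 and 211 (weaning in resveratrol litters, 21 days, and both averages). With 1 library left out, counts ran from 388 to 1049 (weaning, resveratrol), 394 to 944 (21 days), 222 to 426 (28 days) and 633 to 1367 (difference). Median-of-ratios rescaling moved the median of all genes from -0.16 to 0.014 for weaning in resveratrol litters and from -0.15 to 0.003 for the difference, and the share of higher calls from 20.9% to 44.6% and from 23.3% to 42.9%. For 21 days, 28 days and weaning averaged these shares moved from 66.8% to 55.6%, 47.3% to 61.1% and 51.9% to 69.4%. With that rescaling SLC2A2 was at 0.80 in resveratrol litters and 1.775 in the difference, and both transporters kept their direction in all 7 comparisons.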
